A study of Mus musculus with 9 samples.

Results

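The genes described here are 9 of the 54432 genes in the table, chosen by symbol for their part in cholesterol efflux and in signalling through the liver X receptors (LXR): *Abca1*, *Abcg1*, *Apoe*, *Mylip*, *Smpdl3a*, *Nr1h2*, *Nr1h3*, *Rxra* and *Rxrb*. Each symbol matched 1 gene identifier, and all 9 genes passed the filter on low counts. RNAseq was performed on RAW 264.7 macrophages, a mouse macrophage-like cell line used at passages 13 to 15, in 3 groups of 3 libraries. Control cells (CTRL) were left untreated, and the other groups were treated for 6 hours with 1 mM VLDL-sized (VLDLsep) or 1 mM chylomicron-sized (CHYLsep) emulsion particles. Both particles were made from sunflower oil with sodium caseinate as the emulsifier. The labels call the control cells untreated, so the lipid and the emulsifier cannot be told apart. All groups come from this 1 line, and each library is a pool of the samples of a condition in 1 experiment.

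LXRα (*Nr1h3*) and LXRβ (*Nr1h2*) are nuclear receptors that bind oxysterols, the oxidised forms of cholesterol. They act on DNA as dimers with a retinoid X receptor such as RXRα (*Rxra*) or RXRβ (*Rxrb*), and in macrophages they switch on the genes that carry cholesterol out of the cell. ABCA1 and ABCG1 are the membrane transporters that pass cholesterol to apolipoprotein A-I and to HDL, and apolipoprotein E accepts it. The ubiquitin ligase MYLIP (IDOL) marks lipoprotein receptors for breakdown in the lysosome, and SMPDL3A is a secreted phosphodiesterase. SMPDL3A has been described as an LXR target, and whether it is one in these mouse cells was not tested.

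The libraries held 22393893 to 22856792 estimated counts. Levels are given as cpm, counts scaled to the same total in each library after TMM normalization (trimmed mean of M-values, a scaling that sets aside the genes that differ most between libraries). A gene was called higher or lower where the adjusted p of limma was under 0.05. The 3 libraries with replicate number 3 stood apart from the others in every group: across genes, their log2 cpm correlated with those of the other libraries of their group at 0.989 to 0.9903, against 0.9925 to 0.9932 between numbers 1 and 2. Values of the 9 genes without these 3 libraries are therefore given beside their results. All 10 macrophage markers examined were detected, with a summed level of 7436 to 7506 cpm in CTRL, 6655 to 6905 in VLDLsep and 6874 to 7118 in CHYLsep. *Itgam*, *Lyz2*, *Ptprc*, *Cd14* and *Spi1* were lower and *Cd68* was higher with VLDL-sized particles (the call of *Itgam* was lost with edgeR and that of *Cd68* with scaling by library size alone), and *Ptprc* and *Cd14* were lower with CHYL-sized particles. Markers of fibroblasts, epithelium, endothelium, lymphocytes, liver and red cells summed to 2.78 to 3.39 cpm in CTRL, 3.05 to 3.46 in VLDLsep and 3.47 to 3.81 in CHYLsep, with 5 of the 12 (among them *Epcam*, *Krt18*, *Alb* and *Hbb-bs*) at 0 in all libraries. Over all genes tested, 35.6% were called with VLDL-sized and 25.7% with CHYL-sized particles, and the marker calls are a description. The part of these differences in the results was not tested.

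Of the 9 genes, *Abca1* and *Abcg1* were lower and *Rxra* was higher with VLDL-sized particles, and the remaining 6 were not called. Over all 12637 genes tested in that comparison 35.6% were called, 17.8% higher and 17.9% lower. With CHYL-sized particles the same 3 genes were called, against 25.7% of all genes, 12.7% higher and 13.0% lower. The count of 3 in 9 is thus close to the share of all genes called, and is no result about these genes as a group; the median log2 fold change of the 9 was -0.04 in each comparison, next to -0.00028 and 0.0013 over all genes. The comparisons share the 3 control libraries and are not independent of each other. With scaling by library size alone, the split over all genes moved from 2244 higher and 2256 lower to 1507 higher and 3312 lower with VLDL-sized particles, and from 1610 and 1639 to 1068 and 2514 with CHYL-sized particles, whereas the 3 genes were called in the same directions.

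**Figure D1:**
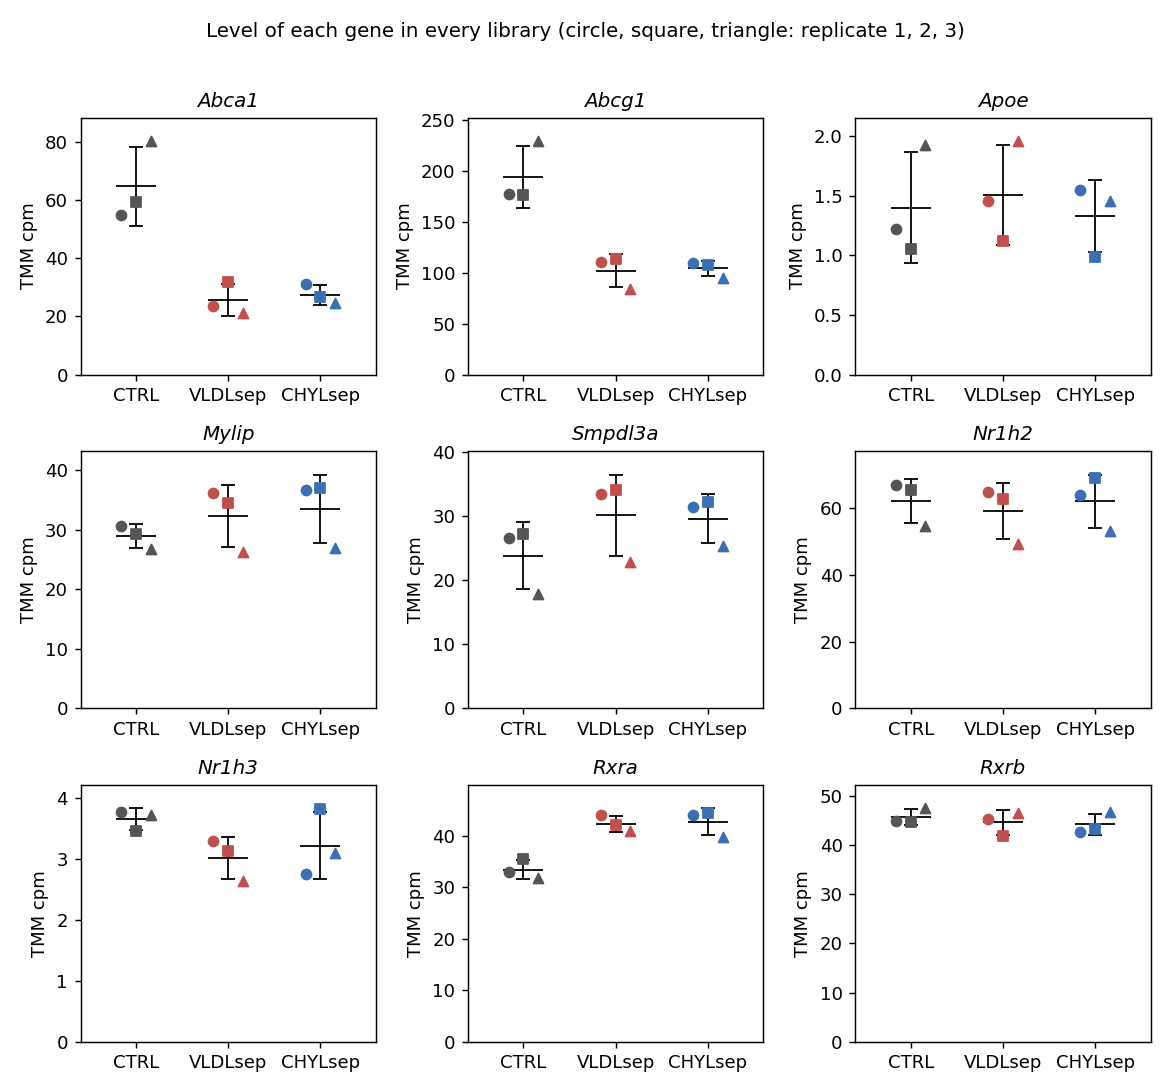
Level of each of the 9 genes (TMM cpm, vertical axes from 0) in every library, by group, with replicates 1, 2 and 3 as circles, squares and triangles, and the mean and SD of 3 libraries as a bar with whiskers. For *Abca1* and *Abcg1* all 6 particle libraries lie below all 3 control libraries, for *Rxra* all 6 lie above them, and for *Mylip*, *Smpdl3a* and *Nr1h2* the triangle is the lowest point in each group.

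*Abca1* (ENSMUSG00000015243, GRCm38 chr4:53030787-53159895, minus strand) encodes the transporter that loads cholesterol and phospholipid onto lipid-poor apolipoprotein A-I. Its level was 54.9, 59.3 and 80.4 cpm in CTRL replicates 1 to 3. With VLDL-sized particles the level was 23.7, 31.9 and 21.3 cpm, and with CHYL-sized particles it was 31.1, 26.6 and 24.5 cpm. The groups did not overlap, since the highest particle library lay well under the lowest control library. The mean fell from 64.9 ± 13.6 cpm in CTRL to 25.6 ± 5.53 with VLDL-sized and 27.4 ± 3.38 with CHYL-sized particles (SD, n = 3). The fold change was 2.53-fold lower with VLDL-sized particles (log2 fold change -1.34, SE 0.17, 95% confidence interval -1.72 to -0.96, adjusted p = 1.7e-04) and 2.34-fold lower with CHYL-sized particles (-1.23, SE 0.17, -1.60 to -0.85, adjusted p = 4.4e-04). Replicate 3 was the highest control library and the lowest library of each particle group, so the log2 ratio between same-numbered libraries was -1.21, -0.90 and -1.92 for VLDL-sized and -0.82, -1.16 and -1.71 for CHYL-sized particles. Without the libraries numbered 3 the log2 fold changes were -1.05 (adjusted p = 2.3e-06) and -0.99 (adjusted p = 6.0e-06). In bulk RNA, fewer cells that express a gene and less RNA of it per cell cannot be told apart.

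*Abcg1* (ENSMUSG00000024030, chr17:31057675-31117988, plus strand) encodes the half-transporter that promotes efflux to mature HDL. Its level was 177, 176 and 229 cpm in CTRL, 110, 113 and 83.9 cpm with VLDL-sized particles, and 109, 107 and 94.8 cpm with CHYL-sized particles. Again no particle library reached the lowest control library, and replicate 3 was the highest of the controls and the lowest of each particle group. The mean fell from 194 ± 30.2 cpm to 102 ± 15.9 and 104 ± 7.67 cpm (SD, n = 3), which is 1.9-fold lower with VLDL-sized particles (log2 fold change -0.93, SE 0.13, adjusted p = 2.6e-04) and 1.86-fold lower with CHYL-sized particles (-0.90, SE 0.13, adjusted p = 5.3e-04). Without the libraries numbered 3 the log2 fold changes were -0.67 (adjusted p = 4.7e-08) and -0.71 (adjusted p = 4.1e-08). The ratio of the level of *Abcg1* to that of *Abca1*, both per kilobase of median transcript length, was 14.5 to 16.4 in the control libraries, 18.0 to 23.6 with VLDL-sized and 17.8 to 20.5 with CHYL-sized particles, so *Abca1* had the larger proportional fall in these libraries. This difference was not tested. The size of the ratio depends on the length used: per kilobase of the longest transcript it was 5.01 to 5.67 in CTRL. On that scale it was 6.23 to 8.16 with VLDL-sized and 6.15 to 7.08 with CHYL-sized particles. Over the 9 libraries the log2 cpm of the transporter genes had a Pearson r of 0.98, a description that includes the difference between the groups.

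The promoters of these genes were searched in the RefSeq table of GRCm38.p6, which holds 32851 promoters of 27025 symbols, each running from 250 bases before to 50 bases after a start site. It matched 7 of the 9 genes, with 12 promoters, and *Abcg1* and *Smpdl3a* have no entry. LXR and RXR dimers are known to bind direct repeats of AGGTCA with 4 bases between the copies, so both strands were searched for that arrangement with at most 3 mismatches in its 12 fixed bases. No other motif was searched. Such a match stands in 21.9% of all promoters, so a match by itself says little. It was present in the promoters of 2 of the 7 genes, *Abca1* and *Rxra*, and not within this limit in the windows of *Apoe*, *Mylip*, *Nr1h2*, *Nr1h3* and *Rxrb*. The 250 bases before the start site of *Abca1* (GRCm38.p6, chr4:53159896-53160145, minus strand) are shown because they hold the match of the gene that fell most among the 9, with the match in capitals; it reads on the opposite strand, at -67 to -52 from the start site.
Abca1 promoter: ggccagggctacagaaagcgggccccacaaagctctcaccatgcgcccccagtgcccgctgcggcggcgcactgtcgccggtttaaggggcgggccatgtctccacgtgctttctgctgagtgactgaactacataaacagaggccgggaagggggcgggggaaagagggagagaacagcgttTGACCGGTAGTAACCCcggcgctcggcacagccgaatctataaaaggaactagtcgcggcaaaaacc

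The 16 bases of this match were then looked for in all promoters, a search added after the match was seen. They stand unchanged in 2 promoters, those of *Abca1* and of *Fasn*, the fatty acid synthase gene, and with at most 2 differences in 6 promoters (0.0183% of all). The 5 symbols among those are *Abca1*, *Fasn*, *Rnf145*, *Srebf1* and the predicted gene *Gm52617*. *Srebf1* (the sterol regulatory element binding protein SREBP1) and *Rnf145* (a ubiquitin ligase) each differ from *Abca1* by 2 bases, and each holds the match in 1 of 3 promoters. The matches are shown together so that the shared letters can be compared, with *Rxra* and *Arl4c* added as genes that hold a different match. Each is written 5′ to 3′ on the strand where the repeat reads, with 10 bases on either side, and the capitals mark the matched repeat with its spacer.
Abca1 (chr4:53159947-53159962): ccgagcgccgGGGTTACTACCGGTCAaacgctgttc
Fasn (chr11:120824757-120824772): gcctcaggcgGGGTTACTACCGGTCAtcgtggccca
Srebf1 (chr11:60210638-60210653): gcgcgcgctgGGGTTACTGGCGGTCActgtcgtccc
Rnf145 (chr11:44520197-44520212): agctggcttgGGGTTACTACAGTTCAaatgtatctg
Arl4c (chr1:88702251-88702266): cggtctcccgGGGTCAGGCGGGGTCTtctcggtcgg
Rxra (chr2:27709234-27709249): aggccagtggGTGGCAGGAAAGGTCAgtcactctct
*Abca1*, *Fasn*, *Srebf1* and *Rnf145*, with nearly the same 16 bases, were all lower with either particle (values of the last 3 are given with the LXR targets). Over all genes tested, 17.9% were lower with VLDL-sized and 13.0% with CHYL-sized particles, and no level of *Gm52617* is given. Of the genes with a different match, *Arl4c* was lower too, and *Rxra*, whose match lies in 1 of its 2 promoters, was higher. Of 11 further LXR targets with a promoter entry, which have 16 promoters, 4 held a match. The 21.9% of all promoters is a share per promoter, and no share per gene is given. Counts of genes with a match are thus no result about these genes as a group. *Lpcat3* and *Apoc2*, with none within the limit, were also lower with VLDL-sized particles, and *Lpcat3* with CHYL-sized ones. A link between match and change was not tested. These are letters in a window, and binding of a factor there was not measured.

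*Apoe* (ENSMUSG00000002985, chr7:19696109-19699188, minus strand) encodes a cholesterol acceptor that many macrophages secrete, though RAW 264.7 cells are known for making little or none. It was close to the lower limit of the table, with 22 to 45 counts per library. The level was 1.22, 1.05 and 1.93 cpm in CTRL, 1.46, 1.12 and 1.96 cpm with VLDL-sized particles, and 1.55, 0.99 and 1.46 cpm with CHYL-sized particles. The groups overlapped throughout. The log2 fold changes were 0.12 (95% confidence interval -0.53 to 0.78, adjusted p = 0.78) and -0.04 (-0.71 to 0.62, adjusted p = 0.94). Changes in either direction within these intervals remain possible. The values were 0.17 (adjusted p = 0.69) and 0.13 (adjusted p = 0.79) without the libraries numbered 3.

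*Mylip* (ENSMUSG00000038175, chr13:45389742-45412022, plus strand) encodes the ubiquitin ligase. Its level was 30.7, 29.2 and 26.8 cpm in CTRL, 36.1, 34.5 and 26.3 cpm with VLDL-sized particles, and 36.7, 37.0 and 26.9 cpm with CHYL-sized particles. Replicates 1 and 2 of both particle groups lay above all control libraries, while replicate 3 of each lay at the level of control replicate 3. The log2 fold changes were 0.15 (SE 0.14, adjusted p = 0.46) and 0.20 (SE 0.14, adjusted p = 0.34). Without the libraries numbered 3 they were 0.24 (adjusted p = 0.0079) and 0.30 (adjusted p = 0.0022), so the call for *Mylip* turns on these libraries.

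*Smpdl3a* (ENSMUSG00000019872, chr10:57794335-57811830, plus strand) had 26.5, 27.2 and 17.8 cpm in CTRL, 33.4, 34.1 and 22.8 cpm with VLDL-sized particles, and 31.4, 32.2 and 25.3 cpm with CHYL-sized particles. Replicate 3 was the lowest library of each group, and its low level made the groups overlap. Against the control library of the same number, each particle library was higher, by a log2 ratio of 0.34, 0.33 and 0.35 for VLDL-sized and 0.25, 0.24 and 0.50 for CHYL-sized particles. The log2 fold changes were 0.34 (SE 0.19, adjusted p = 0.20) and 0.33 (SE 0.19, adjusted p = 0.23). For VLDL-sized particles, where every same-numbered pair correlated above 0.1 across genes, the fit with a replicate block gave 0.34 (SE 0.06, adjusted p = 7.9e-04). Without the libraries numbered 3 the values were 0.33 (adjusted p = 7.3e-04) and 0.25 (adjusted p = 0.0087), and without VLDLsep replicate 3 alone the value for VLDL-sized particles was 0.53 (adjusted p = 0.033). *Smpdl3a* therefore moved the opposite way from *Abca1* and *Abcg1* in every same-numbered pair, although it was not called when all 9 libraries were taken as unpaired. Its call turned on the libraries numbered 3 as well as on the pairing.

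**Figure D2:**
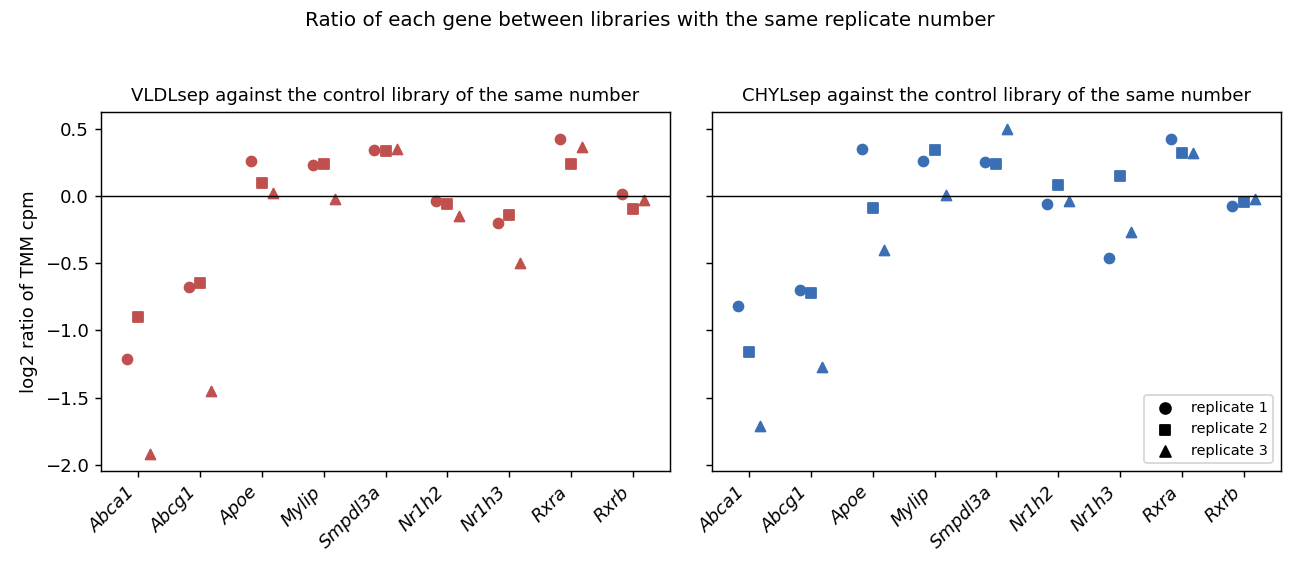
Log2 ratio of TMM cpm between each particle library and the control library with the same replicate number, for VLDLsep (left) and CHYLsep (right), with replicates 1, 2 and 3 as circles, squares and triangles and a line at 0. The ratios of *Abca1* and *Abcg1* are all below 0 and lowest for replicate 3, and those of *Smpdl3a* and *Rxra* are all above 0.

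*Nr1h2* (ENSMUSG00000060601, chr7:44549616-44553951, minus strand), the gene of LXRβ, had 66.9, 65.4 and 54.8 cpm in CTRL, 65.0, 62.8 and 49.4 cpm with VLDL-sized particles, and 64.1, 69.0 and 53.3 cpm with CHYL-sized particles. The groups overlapped, and replicate 3 was the lowest in each. The log2 fold changes were -0.08 (95% confidence interval -0.36 to 0.19, adjusted p = 0.65) and -0.01 (-0.28 to 0.27, adjusted p = 0.98), and -0.05 and 0.0085 (adjusted p = 0.51 and 0.92) without the libraries numbered 3. *Nr1h3* (ENSMUSG00000002108, chr2:91184061-91202834, minus strand), the gene of LXRα and itself an LXR target in some human cells, was far less abundant, at 58 to 90 counts per library. Its level was 3.78, 3.46 and 3.73 cpm in CTRL, 3.29, 3.14 and 2.64 cpm with VLDL-sized particles, and 2.75, 3.83 and 3.10 cpm with CHYL-sized particles. The VLDL-sized group lay below the controls without overlap, whereas CHYLsep replicate 2 was above all controls. Neither difference passed the test (log2 fold change -0.28, SE 0.16, adjusted p = 0.20, and -0.19, SE 0.16, adjusted p = 0.40). Leaving out the libraries numbered 3 gave -0.17 (adjusted p = 0.52) and -0.16 (adjusted p = 0.58). Per kilobase of median transcript length, the level of *Nr1h2* was 36.3 to 57.8 times that of *Nr1h3* over the 9 libraries, and 14.6 to 23.2 times per kilobase of the longest transcript, so LXRβ was the main LXR transcript in every library.

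*Rxra* (ENSMUSG00000015846, chr2:27676440-27762957, plus strand) encodes RXRα, the shared partner of LXR and of many other nuclear receptors. Its level was 33.0, 35.5 and 31.8 cpm in CTRL, 44.0, 42.0 and 40.9 cpm with VLDL-sized particles, and 44.1, 44.4 and 39.7 cpm with CHYL-sized particles. All 6 particle libraries were higher than all 3 control libraries. The mean rose from 33.4 ± 1.88 cpm to 42.3 ± 1.60 and 42.7 ± 2.64 cpm (SD, n = 3), a fold of 1.27 with VLDL-sized particles (log2 fold change 0.34, SE 0.07, adjusted p = 0.0027) and 1.28 with CHYL-sized particles (0.35, SE 0.07, adjusted p = 0.0032). The change was small but larger than the spread, and it was 0.33 (adjusted p = 7.0e-04) and 0.37 (adjusted p = 3.8e-04) without the libraries numbered 3. *Rxrb* (ENSMUSG00000039656, chr17:34031812-34038399, plus strand), the gene of RXRβ, had 44.9, 44.7 and 47.5 cpm in CTRL, 45.4, 41.8 and 46.6 cpm with VLDL-sized particles, and 42.7, 43.2 and 46.7 cpm with CHYL-sized particles. These groups overlapped, with log2 fold changes of -0.04 (95% confidence interval -0.17 to 0.10, adjusted p = 0.69) and -0.05 (-0.19 to 0.09, adjusted p = 0.62), so a rise as large as that of *Rxra* lies outside both intervals. The values for *Rxrb* were -0.04 (adjusted p = 0.61) and -0.06 (adjusted p = 0.48) without the libraries numbered 3. The level of *Rxrb* relative to *Rxra*, per kilobase of median transcript length, was 2.81 to 3.33 in the control libraries and 2.16 to 2.63 in the particle libraries, ranges that did not overlap and were not tested. Per kilobase of the longest transcript it was 2.35 to 2.79 in the control libraries and 1.81 to 2.2 in the particle libraries. *Rxrg*, the third RXR gene, had no counts in any library.

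**Figure D3:**
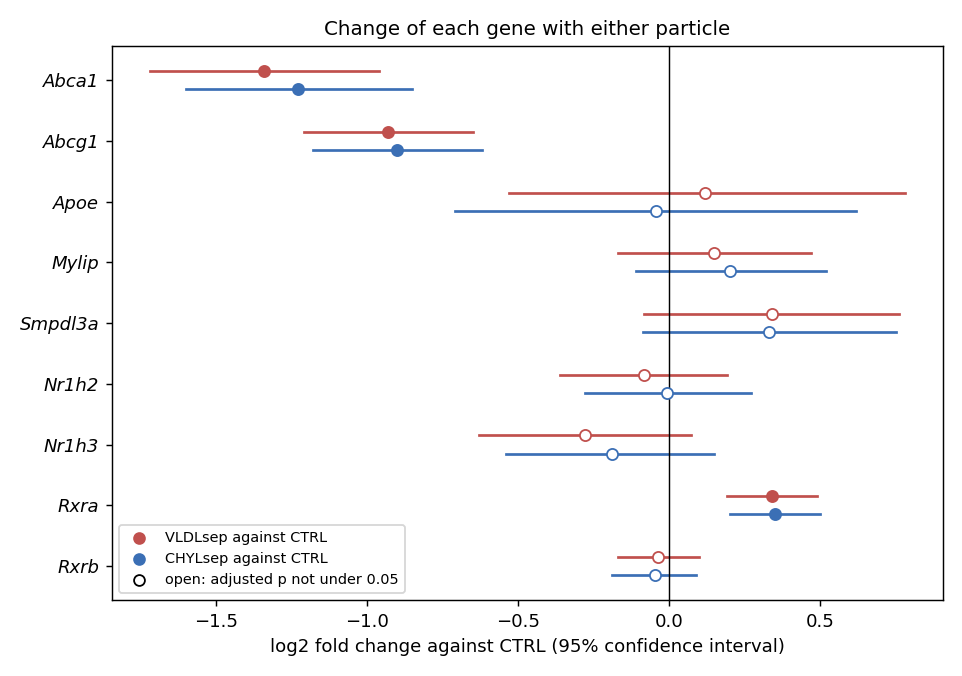
Log2 fold change of each gene against CTRL (horizontal axis) with its 95% confidence interval from limma, for VLDLsep in red and CHYLsep in blue, filled where the adjusted p was under 0.05. The filled points are *Abca1*, *Abcg1* and *Rxra*, and the widest intervals are those of *Apoe*, the gene with the fewest counts.

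Levels were compared between genes per kilobase of median transcript length, in cpm per kilobase. In CTRL the order was *Abcg1* (179 ± 27.8), *Nr1h2* (90.4 ± 9.54), *Rxrb* (51.8 ± 1.78), *Smpdl3a* (28.1 ± 6.12), *Rxra* (17.0 ± 0.952), *Abca1* (11.8 ± 2.47), *Mylip* (11.5 ± 0.794), *Nr1h3* (2.14 ± 0.103) and *Apoe* (1.71 ± 0.569; SD, n = 3). The neighbours *Abca1* and *Mylip*, and *Nr1h3* and *Apoe*, did not differ beyond their spread. With the particles *Abca1* fell to 4.64 ± 1.00 and 4.97 ± 0.612 cpm per kilobase, below *Mylip* at 12.9 ± 2.10 and 13.4 ± 2.30. Per kilobase of the longest transcript, *Abcg1* (33.3 ± 5.18) and *Nr1h2* (31.2 ± 3.29) were within each other's spread in CTRL, and *Abca1* (6.32 ± 1.33) stood below *Mylip* (9.42 ± 0.65) already there. On that scale *Rxra* (6.81 ± 0.382) was also below *Mylip*, the reverse of their order by median length.

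**Figure D4:**
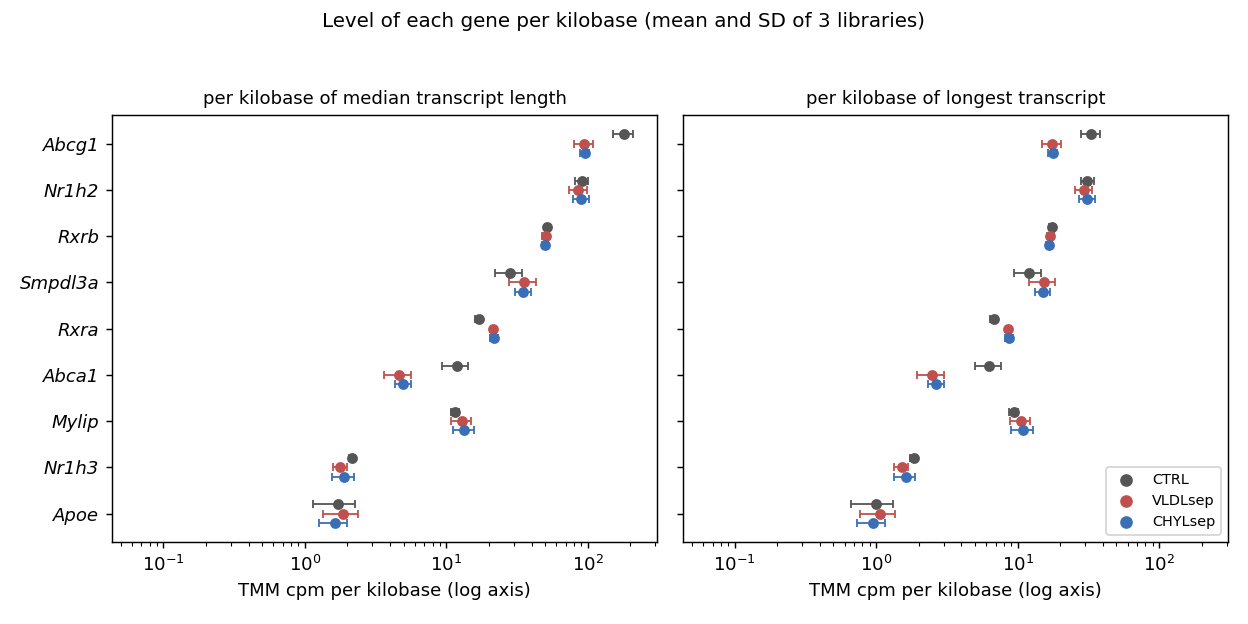
Level of each gene in TMM cpm per kilobase (log axis, mean and SD of 3 libraries) by group, per kilobase of median transcript length (left) and of the longest transcript (right). *Abca1* moves from beside *Mylip* in CTRL to below it with the particles in the left panel, and *Nr1h3* and *Apoe* are the lowest genes in both panels.

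No gene of the 9 was called between VLDL-sized and CHYL-sized particles, and of all genes tested 0% were called. Without adjustment, 813 genes and 0 of the 9 had a p under 0.05. Among the other tools, edgeR called 0 genes and DESeq2 called 24 genes. With a replicate block 147 genes were called, and without the libraries numbered 3 it was 257 genes. None of these calls was among the 9. With VLDL-sized set against CHYL-sized particles, *Abca1* had a log2 fold change of -0.11 (95% confidence interval -0.53 to 0.30, adjusted p = 0.97), and for *Abcg1* it was -0.03 (-0.31 to 0.25, adjusted p = 0.99). That of *Rxra* was -0.01 (-0.16 to 0.13, adjusted p = 0.99). The intervals still allow a difference of up to 1.44-fold in *Abca1* and 1.24-fold in *Abcg1*, with VLDL-sized particles the lower.

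Further LXR target genes showed how *Abca1* and *Abcg1* stood among genes that the same receptors control. Of a list of 15, 10 were tested. With VLDL-sized particles 8 were lower and 1 was higher, with a median log2 fold change of -1.15. With CHYL-sized particles 7 were lower and 1 was higher, with a median of -0.88. Over all genes tested, 17.9% and 13.0% were lower, 17.8% and 12.7% were higher, and the medians were -0.00028 and 0.0013. The list was written with earlier results of these data known, so its counts are a description. The values for VLDL-sized and CHYL-sized particles were -1.37 and -1.19 for *Srebf1*, which switches on fatty acid synthesis. They were -1.19 and -1.09 for *Fasn*, -1.18 and -1.15 for *Arl4c* (a small GTPase), and -0.92 and -0.66 for *Rnf145*. The largest falls of the list were those of the desaturase genes *Scd1* (-3.05 and -3.00) and *Scd2* (-3.16 and -2.95), and *Lpcat3*, which remodels phospholipids, fell by 0.37 and 0.38. *Apoc2*, with at most 31 counts, fell by 1.12 with VLDL-sized particles (adjusted p = 0.013) and was not called with CHYL-sized particles (-0.54, adjusted p = 0.17). *Lpl*, which encodes lipoprotein lipase, was the one gene that was higher (0.22 and 0.21), a call that was lost with scaling by library size alone. *Apoc1* had no counts in any library. *Srebf1*, *Fasn*, *Scd1* and *Scd2* are also targets of the SREBP proteins, and of 16 SREBP2 target genes all 14 tested were lower in each comparison (median log2 fold change -1.38 and -1.29), among them *Insig1* (-2.14 and -2.00) and *Hmgcs1* (-2.23 and -2.06). The falls of *Abca1* (-1.34 and -1.23) were thus close in size to those of *Fasn* and *Arl4c*, and those of *Abcg1* (-0.93 and -0.90) were smaller. Both genes fell more than *Lpcat3*, while *Mylip* and *Smpdl3a* had positive estimates. Without the libraries numbered 3, the values were -1.05 and -0.99 for *Abca1* and -0.67 and -0.71 for *Abcg1*. Differences in size between genes were not tested.

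**Figure D5:**
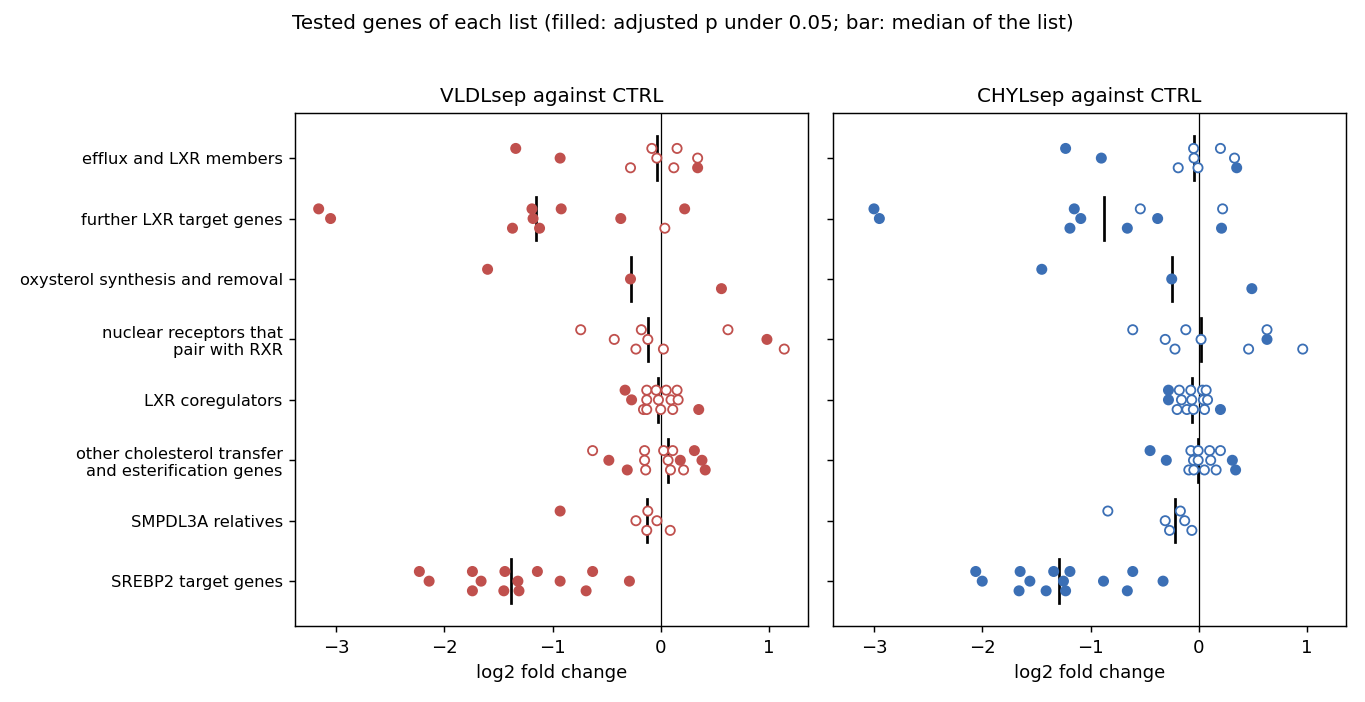
Log2 fold change of each tested gene of 8 lists, for VLDLsep (left) and CHYLsep (right) against CTRL, filled where the adjusted p was under 0.05, with the median of each list as a black bar. The medians of the further LXR targets and of the SREBP2 targets lie well below 0, whereas those of the coregulators and of the RXR partners lie near 0.

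The enzymes that make or remove the oxysterol ligands of *Nr1h2* and *Nr1h3* were mostly sparse, and 3 of 8 were tested. *Ch25h*, which makes 25-hydroxycholesterol, fell by 1.60 and 1.45 on the log2 scale (adjusted p = 0.0055 and 0.012) but had at most 16 counts in a library. *Cyp27a1*, which makes 27-hydroxycholesterol, fell by 0.28 and 0.25 (adjusted p = 0.024 and 0.049), and *Hsd3b7*, which acts on oxysterols on the way to bile acids, rose by 0.56 and 0.49 (adjusted p = 4.6e-04 and 0.0016). Without the libraries numbered 3, *Ch25h* was not tested and *Cyp27a1* was not called (-0.19 and -0.20, adjusted p = 0.085 and 0.088). The call of *Cyp27a1* with CHYL-sized particles was also lost with upper-quartile scaling, with DESeq2 (adjusted p = 0.055) and with edgeR (adjusted p = 0.051), and that of *Ch25h* with DESeq2 (adjusted p = 0.075).

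Beside the rise of *Rxra*, 9 of 13 further nuclear receptor genes that form or relate to RXR dimers were tested, and *Ppard*, the gene of PPARδ, was called, with a rise of 0.98 with VLDL-sized and 0.63 with CHYL-sized particles (adjusted p = 7.0e-05 and 0.0023). With a replicate block, 2 of them were higher and 2 were lower with VLDL-sized particles. All 15 coregulators of the LXR proteins were tested, and 1 was higher and 2 were lower in each comparison, or 3 and 3 for VLDL-sized particles with a replicate block. With no block, the shares of RXR partners and of coregulators called were below those of all genes, 35.6% and 25.7%. They are no result about either list as a group. The shares of all genes called with a block are not given. The acetyltransferase gene *Crebbp* rose by 0.35 and 0.20 (the second call was lost with scaling by library size alone), the corepressor subunit gene *Tbl1xr1* fell by 0.33 and 0.28, and the coactivator gene *Ncoa3* fell by 0.27 and 0.28.

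*Abca1* and *Abcg1* act beside other routes of cholesterol out of or within the cell. Of 16 such genes 15 were tested, and 4 were higher and 2 lower with VLDL-sized particles and 2 higher and 2 lower with CHYL-sized particles, with medians of 0.07 and -0.01. With a replicate block 4 were higher and 5 lower with VLDL-sized particles, and without the libraries numbered 3 the CHYL-sized comparison had 5 higher and 2 lower. With all 9 libraries and no block, the number called is near the share of all genes called, and is likewise no result about the list. The shares of all genes for the other settings are not given. *Scarb1*, the gene of the HDL receptor SR-BI, fell by 0.48 and 0.45, and *Gramd1b*, which carries cholesterol to the endoplasmic reticulum, fell by 0.31 and 0.30. *Soat1*, which esterifies cholesterol for storage, rose by 0.41 and 0.34, and *Npc1*, which releases it from lysosomes, rose by 0.38 and 0.31. *Osbpl1a* (0.31, adjusted p = 0.0095) and *Nceh1* (0.18, adjusted p = 0.047) were higher with VLDL-sized particles, the latter not with scaling by library size alone (0.08, adjusted p = 0.36).

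Among the receptors that MYLIP degrades, *Lrp8* rose by 1.16 and 1.17 on the log2 scale (adjusted p = 2.2e-06 and 3.3e-06), from 52.3 cpm in CTRL to 117 and 118 cpm. *Vldlr* had no counts in any library. The deubiquitinase gene *Usp2* was lower with VLDL-sized particles (-0.84, adjusted p = 0.017, and -0.65, adjusted p = 0.059), and the ubiquitin-conjugating enzyme gene *Ube2d3* was higher (0.31 and 0.24). Of the 6 relatives of SMPDL3A, *Smpd3* was lower with VLDL-sized particles (-0.93, adjusted p = 0.03, at most 60.1 counts), none was called with CHYL-sized particles, and the closest paralog *Smpdl3b* was not called (-0.23, adjusted p = 0.17, and -0.17, adjusted p = 0.35). The share of the 6 called was below that of all genes, 35.6% and 25.7%, and is no result about them as a group. With a replicate block, 3 of the 6 were lower with VLDL-sized particles, and the share of all genes called in that fit is not given.

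Among the 9 genes the spread between libraries of a group was small for *Rxrb* (coefficient of variation 3.44% to 5.61%) and *Rxra* (3.77% to 6.19%) and was largest, in each group, for *Apoe* (22.6% to 33.2%). That of *Nr1h3* was 4.83% in CTRL, under the 5.61% of *Rxra* there, but 11.3% and 17.0% with the particles. That of *Abca1* was 21.0% in CTRL, 21.6% with VLDL-sized and 12.3% with CHYL-sized particles. Across the 9 libraries *Mylip* had an r of 0.87 with *Smpdl3a* and 0.80 with *Nr1h2*, the genes that share the low level of the libraries numbered 3. *Rxra* had an r of -0.88 with *Abca1* and -0.86 with *Abcg1*, and *Nr1h3*, the rarer receptor gene, had an r of 0.60 and 0.69 with them. These values are descriptions over 9 libraries that hold the group difference, and *Abca1* had an r of only 0.17 with *Nr1h2*.

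The genes most like each of the 9 were taken by the Pearson r of log2 cpm over the 9 libraries, among 10596 genes with a mean of at least 50 counts. This measure includes the group difference and is a description. Nearest to *Abca1* were *Gpr65* (0.985), *Irf9* (0.984) and *Jade2* (0.983), and nearest to *Abcg1* were *Foxp1* (0.994), *Irf9* (0.991) and *Dhrs3* (0.987). *Gpr65*, a proton-sensing receptor gene, went from 54.9 cpm in CTRL to 23.8 and 26.9 cpm, close to *Abca1* itself. Nearest to *Rxra* were *Klf11* (0.985), *Snap29* (0.982) and *Yae1d1* (0.978), with *Klf11* rising from 5.09 to 11.9 and 11.3 cpm. Nearest to *Smpdl3a* were *Irak4* (0.985), *Baz2a* (0.981) and *Gm29084* (0.976), and among the nearest to *Mylip* were *Srsf11* (0.971) and *Snx27* (0.966), none of them called with VLDL-sized particles. For *Nr1h2* they were *Vmac* (0.976), *Pde8a* (0.975) and *Hoxc6* (0.973), and for *Nr1h3* *Tnfsfm13* (0.971), *Serpinf1* (0.959) and *Ift46* (0.930). The r of the nearest gene was lowest for *Apoe* (*Rabl6*, 0.919) and *Rxrb* (*Psmg1*, 0.959), of which *Apoe* had the fewest counts.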

How the data were processed

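RNAseq libraries of RAW 264.7 macrophages (3 per group) were grouped by the sample labels. The authors quantified reads with Salmon 0.14.1 against GENCODE transcripts of GRCm38.p6 and deposited an estimated count per gene, summarized with tximport (tools and build also per the submitters' processing notes). The methods also describe scaled counts. Since 58.3% of the values above 10 were whole numbers, the deposited table was taken to be unscaled. Symbols matched 54346 of 54432 identifiers. GENCODE gave the GRCm38 coordinates and the transcript lengths.

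A gene was kept if it exceeded 10 counts in 3 or more libraries (12637 genes). TMM factors from edgeR 4.0.16 and voom weights entered limma 3.58.1 (R 4.3.3, two-sided, Benjamini-Hochberg over all genes tested), fitted to all 9 libraries with no replicate block. Levels are TMM cpm. The steps were tested on simulated data. Alternatives were edgeR's quasi-likelihood test and DESeq2 1.42.0 on rounded counts, limma-trend (prior count 2), library size only, upper quartile, no filter, a stricter filter (over 50 counts), only the groups compared, a replicate block, replicate number 3 left out in all groups, and each library left out. The methods describe biological triplicates with technical samples pooled, so p-values measure the spread between these libraries.

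Same-numbered VLDLsep and CTRL libraries deviated together from their group means across genes (r = 0.138, 0.132 and 0.293), which meets the rule of over 0.1 in every pair. The differently numbered pair of VLDLsep 2 with CTRL 1 also passed 0.1 (r = 0.116), so numbers 1 and 2 were not clearly set apart. Pairs of VLDLsep and CTRL that joined number 3 with another number had r of -0.217 to -0.121. The block was fitted to all 9 libraries, so the CHYLsep libraries entered it too. CHYLsep 2 with CTRL 1 had r = 0.155, above the same-numbered pairs of numbers 1 and 2 (0.124 and 0.068). Between the particles, VLDLsep 1 with CHYLsep 2 (0.179) and VLDLsep 2 with CHYLsep 1 (0.169) were also above those pairs (0.029 and 0.117). Whether a number stands for 1 experiment is not given in the labels. The genes described and the lists were chosen with earlier results of these data known. Named from a list were the 4 genes with the smallest adjusted p with VLDL-sized particles and the direct partners of the 9 genes. *Scd1*, *Lpl*, *Rnf145*, *Nceh1*, *Osbpl1a*, *Itgam*, *Lyz2* and the markers at 0 are not covered by this rule, and their values were known when they were picked. A few genes of the lists are not reported here. Paralogs could share reads, so their levels are uncertain to that extent.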

Additional observations from a re-analysis of the deposited data

How the results depend on the processing

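*Abca1*, *Abcg1* and *Rxra* were called in the same direction under all 19 alternatives in both comparisons with CTRL, with log2 fold changes of -1.51 to -1.05, -1.02 to -0.67 and 0.25 to 0.38 for VLDL-sized and -1.34 to -0.99, -0.98 to -0.71 and 0.27 to 0.41 for CHYL-sized particles. The number called was 3 in each, 3 to 4 and 3 to 3 with 1 library left out, and 5 in each without replicate number 3. With a replicate block it was 4 and 5, and 0 between the particles. The shares of all genes called against CTRL with a block or without replicate number 3 are not given. The counts of the 9 genes and of the lists in these settings are therefore no result about them as groups. For CHYL-sized particles, where not every same-numbered pair correlated above 0.1 (0.124, 0.068 and 0.338), the block gave *Mylip* 0.21 (adjusted p = 0.02) and *Smpdl3a* 0.32 (adjusted p = 0.0016), and it gave 5 lower coregulators, 2 lower RXR partners and 3 lower SMPDL3A relatives. It changed no other call of the 9 genes. The pairs between the particles had r of 0.029, 0.117 and 0.357. Estimates near 0 that were not called changed sign. With 1 library left out, the ranges against CTRL were -0.076 to 0.37 (*Apoe*), -0.17 to 0.041 (*Nr1h2*) and -0.069 to 0.01 (*Rxrb*) for VLDL-sized and -0.22 to 0.21 (*Apoe*) and -0.098 to 0.099 (*Nr1h2*) for CHYL-sized particles. Between the particles they were -0.28 to 0.01 (*Abca1*), -0.11 to 0.11 (*Abcg1*), -0.032 to 0.36 (*Apoe*), -0.20 to 0.089 (*Mylip*), -0.10 to 0.19 (*Smpdl3a*), -0.18 to 0.048 (*Nr1h2*), -0.19 to 0.046 (*Nr1h3*), -0.065 to 0.015 (*Rxra*) and -0.021 to 0.058 (*Rxrb*). Without replicate number 3, *Apoe* was 0.13 and *Nr1h2* 0.0085 with CHYL-sized particles, and *Abcg1* was 0.045 between the particles. With library size only, *Smpdl3a* was -0.008 and *Rxrb* -0.0019 between the particles. The cause was not tested. The stricter filter left out *Apoe*. The list counts with a block, without replicate number 3 and with library size only were chosen after seeing the data. Depth limits *Apoe* and *Nr1h3*, at under 100 counts per library.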
